A study of Mus musculus with 25 samples.

Results

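Tmem132c, Scg2, Megf10, Ivl, Hsd11b1, Kif21b, Pde1b, Pde2a and Bcl2l14 are 9 mouse genes whose mean level was higher in RasHIGH than in RasLOW cells and higher in tumour cells of the liver than in tumour cells of the peritoneum. They were listed for those 2 differences, so the values of both are descriptions here and carry no test. The table of reads per gene held 24984 genes, and all 9 were found in it by symbol. Of 11736 genes with enough reads in both comparisons, 2855 had a log2 fold change above 0 in both, and 18 had one above 1 with an unadjusted p under 0.05 in both. The 9 listed genes are among these 18, beside Ceacam1, Csn3, Hoxb8, Ptgs2os2, Selp, Tdrd9, Tmem252, Tmprss11e and Usp17la.

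The cells were bipotential mouse embryonic liver (BMEL) cells, precursors of hepatocytes and bile duct cells from C57B/6_C3H mice, and the parental line was 1 clone. BMEL WT cells (3 libraries) carried an empty vector. RasLOW and RasHIGH cells (3 libraries each) carried human H-Ras G12V with a Venus or mCherry reporter in a bicistronic lentiviral vector and were sorted for weak or strong fluorescence, with overlap in oncogene level between the populations. All 3 cultures grew in exponential phase on collagen. The sorted libraries came from 4 athymic nude mice that bore BMEL-Ras tumours in the liver and in the peritoneum. Each mouse gave tumour cells, positive for the green reporter, and stroma, negative for it, from both sites, so each of the 4 sorted groups has 4 libraries. The Ras population that had been injected was not given in the labels. Nude mice lack T cells of thymic origin and keep natural killer cells, macrophages and other host cells. The study's methods describe the libraries of the cell lines and of the sorted tumour cells as independent biological samples.

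Total counts ran from 20818989 to 51241336 per library, and 3 reads corresponded to 0.0572 to 0.143 CPM (read counts scaled to the size of the library), a floor that covers counting error only. Hras itself, which counts mouse reads and did not mark the human transgene, had a mean of 79.9 CPM in BMEL WT, 77.9 in RasLOW and 66.9 in RasHIGH, so the table gave no check of the oncogene level. The epithelial markers Krt8, Krt18, Krt19, Sox9 and Cdh1 marked the cultured and tumour cells, and Epcam was under 1 CPM in all 5 of those groups. The leukocyte marker Ptprc was at 940 to 1031 CPM in liver stroma and at 507 to 611 CPM in peritoneal stroma, against 1.05 to 12.2 CPM in peritoneal and 1.78 to 2.64 CPM in liver tumour cells.

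The genes have no common function. Scg2 encodes secretogranin II, a granin of dense-core secretory granules and the precursor of the peptide secretoneurin, and Ivl encodes involucrin, a scaffold protein of the cornified envelope of squamous epithelium. Megf10 encodes an engulfment receptor with epidermal growth factor-like repeats, known from glia and muscle satellite cells, and Tmem132c encodes a single-pass membrane protein of which little is known. Hsd11b1 encodes the enzyme that regenerates active glucocorticoid inside cells and is abundant in hepatocytes. Pde1b and Pde2a encode phosphodiesterases that degrade cyclic nucleotides, the first activated by calcium and calmodulin and the second by cyclic GMP. Kif21b encodes a kinesin motor found in neurons and immune cells, and Bcl2l14 encodes BCL-G, a member of the Bcl2 family of apoptosis regulators.

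On mm9 the genes lie apart from each other: Tmem132c at chr5:127722178-128046163, Scg2 at chr1:79431244-79436665, Ivl at chr3:92374834-92377637, Hsd11b1 at chr1:195047824-195090248, Kif21b at chr1:138027966-138074575, Pde1b at chr15:103333465-103360483, Pde2a at chr7:108570212-108661340 and Bcl2l14 at chr6:134346336-134388754. Tmem132c overlaps 1 non-coding transcript on the other strand and Hsd11b1 overlaps 2, and since the strand setting of the counting is not given in the sources used here, reads of the partners cannot be told apart. RefSeq promoter windows on GRCm38.p6, from 250 bases before to 50 after a start, matched 7 of the genes in 14 windows. The 3 windows below belong to genes that were higher in tumour cells than in stroma, read on the gene's strand. Capitals mark matches to the AP-1 motif TGANTCA, the cyclic AMP response element TGACGTCA or the TATA sequence TATAAA, each searched on both strands.
Tmem132c promoter (chr5:127241576-127241875, plus strand): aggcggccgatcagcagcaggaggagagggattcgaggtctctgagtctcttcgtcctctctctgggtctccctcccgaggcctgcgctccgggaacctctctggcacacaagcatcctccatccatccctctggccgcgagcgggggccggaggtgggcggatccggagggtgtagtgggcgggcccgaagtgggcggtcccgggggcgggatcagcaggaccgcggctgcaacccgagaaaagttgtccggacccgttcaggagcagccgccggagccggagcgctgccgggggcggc
Scg2 promoter (chr1:79439977-79440276, minus strand): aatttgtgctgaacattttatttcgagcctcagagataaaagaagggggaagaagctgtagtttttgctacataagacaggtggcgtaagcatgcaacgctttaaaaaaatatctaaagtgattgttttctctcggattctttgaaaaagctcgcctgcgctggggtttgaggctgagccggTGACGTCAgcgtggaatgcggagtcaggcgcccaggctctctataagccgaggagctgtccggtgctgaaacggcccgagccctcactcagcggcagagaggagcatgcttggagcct
Ivl promoter (chr3:92573686-92573985, minus strand): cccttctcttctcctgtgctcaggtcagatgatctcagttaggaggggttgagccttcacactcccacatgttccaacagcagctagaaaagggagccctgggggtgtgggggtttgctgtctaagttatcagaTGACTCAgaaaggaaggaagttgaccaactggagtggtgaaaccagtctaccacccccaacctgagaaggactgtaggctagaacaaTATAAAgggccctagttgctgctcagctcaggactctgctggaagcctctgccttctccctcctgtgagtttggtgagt
The Scg2 window holds the cyclic AMP response element from position -68 and the Ivl window holds an AP-1 match from position -116 and a TATA match from position -29, counted from the start. The Tmem132c window holds no match to the 3 motifs. Over all 32851 promoter windows, 7.81% hold the AP-1 letters, 1.79% the cyclic AMP response element and 13.6% the TATA letters. Of the 14 windows of the 7 genes, 1, 1 and 2 did.

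In culture, Tmem132c stood at 0.0691, 0.205 and 0.0739 CPM in the BMEL WT libraries, at 1.92, 2.12 and 1.33 CPM in RasLOW and at 19.1, 16.3 and 18 CPM in RasHIGH. The 3 groups did not overlap, and the RasHIGH mean was 9.92 times that of RasLOW in the fitted fold change (log2 3.31 ± 0.26, SE). Kif21b had 0.622, 0.171 and 0.554 CPM in BMEL WT, 1.99, 5.31 and 1.74 CPM in RasLOW and 31.5, 13.1 and 9.51 CPM in RasHIGH, again in separate ranges. Megf10 was at 0.0691, 0 and 0.0739 CPM in BMEL WT, which are 4 reads in all, at 0.497, 0.618 and 0.0807 CPM in RasLOW and at 4.20, 3.25 and 1.03 CPM in RasHIGH. For these 3 genes every RasLOW library lay above every BMEL WT library and below every RasHIGH library. For Megf10, however, RasLOW replicate 3 and BMEL WT replicates 1 and 3 held 2 reads each, under the floor of 3 reads. Their order came from library size alone.

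Scg2 had no read in any BMEL WT library. It was at 0.746, 0.0976 and 0.0404 CPM in RasLOW and at 8.21, 3.04 and 0.583 CPM in RasHIGH. The RasHIGH libraries spanned more than 10-fold and the lowest of them lay below the highest RasLOW library. Against the floor of 3 reads per library, Scg2 was at least 35.6-fold higher in RasHIGH and at least 2.66-fold higher in RasLOW than in BMEL WT. Both bounds rested on replicate 1 of the population: without it the RasHIGH bound was 16.3-fold, and the RasLOW mean of 0.0690 CPM was under the floor of 0.111 CPM and gave no bound.

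Hsd11b1 rested on few reads in culture, at 0.0691, 0.0684 and 0.0739 CPM in BMEL WT, 0.249, 0.0325 and 0 CPM in RasLOW and 1.05, 0.642 and 0.538 CPM in RasHIGH. Pde1b was at 0.104, 0.137 and 0.0369 CPM in BMEL WT, 0.355, 0.0651 and 0.404 CPM in RasLOW and 1.09, 0.684 and 0.763 CPM in RasHIGH. Both were highest in RasHIGH, with no overlap with RasLOW, and in both the RasLOW libraries overlapped BMEL WT.

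The other 3 genes did not follow the order of the oncogene through BMEL WT. Ivl was at 20.7, 10.3 and 18.2 CPM in BMEL WT, at 5.79, 6.74 and 1.90 CPM in RasLOW and at 22.6, 10.4 and 7.27 CPM in RasHIGH. RasLOW lay below both other groups, while RasHIGH and BMEL WT overlapped. Bcl2l14 had the same form, with 0.933, 1.44 and 1.81 CPM in BMEL WT, 0.781, 0.651 and 0.686 CPM in RasLOW and 1.12, 1.63 and 1.62 CPM in RasHIGH. Pde2a was at 1.07, 1.57 and 0.739 CPM in BMEL WT, 0.675, 1.27 and 1.05 CPM in RasLOW and 6.26, 2.10 and 1.26 CPM in RasHIGH, and all 3 ranges overlapped. The high value of Pde2a rested on RasHIGH replicate 1, without which the log2 fold change over RasLOW was 0.76 in place of 1.67. That library was the highest of its group for 8 of the 9 genes, all but Bcl2l14.

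**Figure D1:**
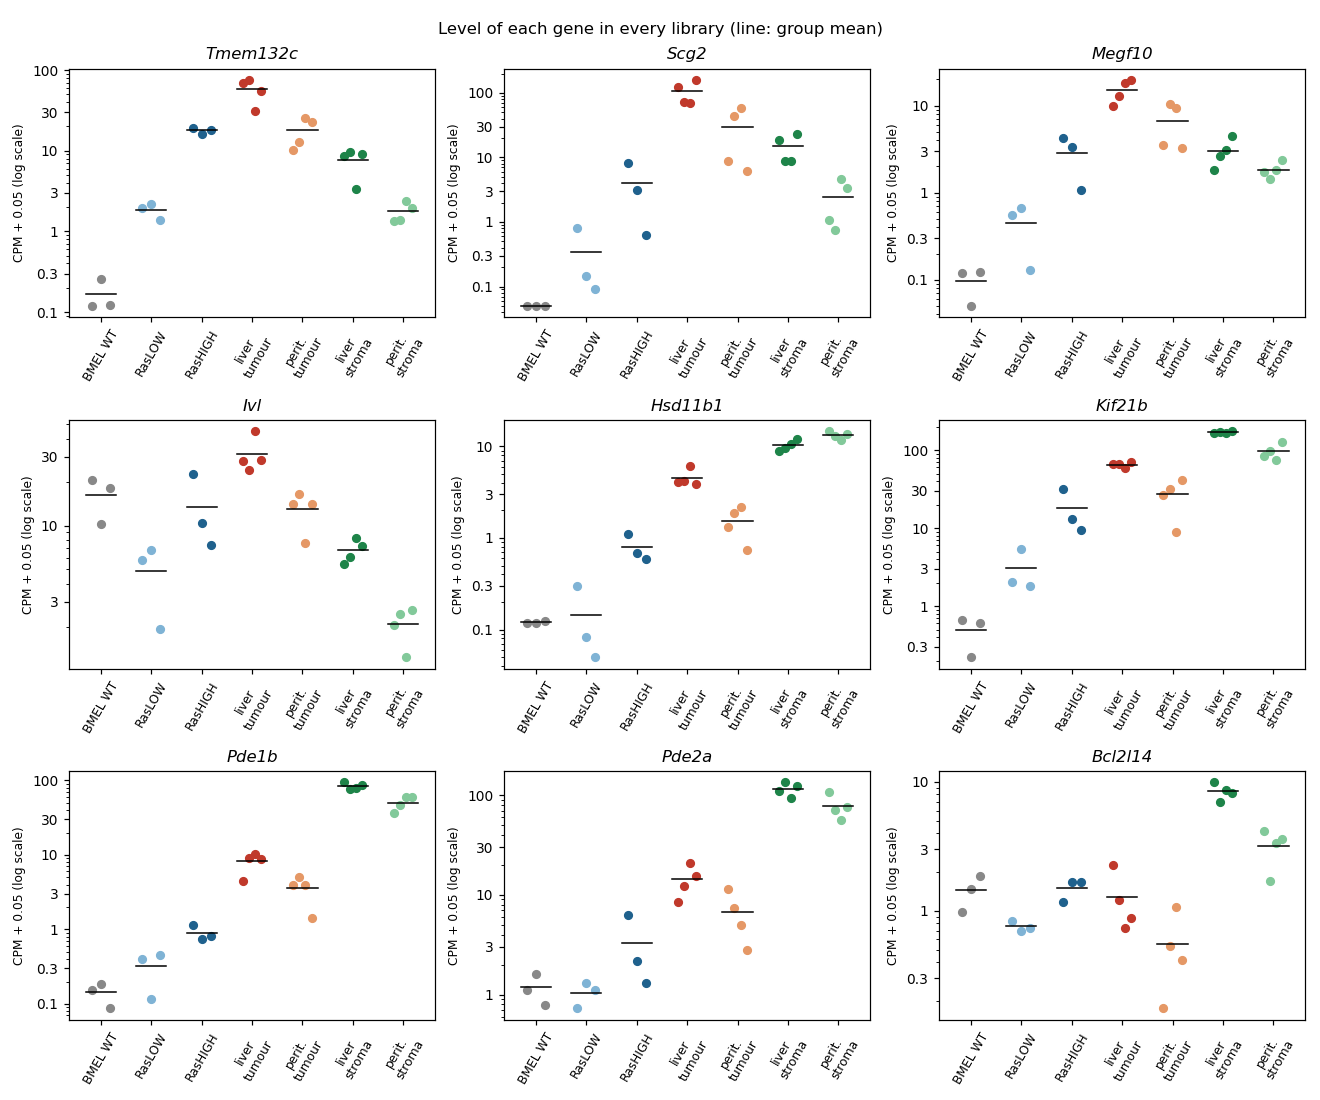
Level of each gene in CPM plus 0.05 (log axis) in the 25 libraries, with 1 point per library, 1 colour per group and the group mean as a line. Tmem132c, Scg2, Megf10 and Ivl are highest in liver tumour cells, and the other 5 genes are highest in stroma.

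Over the 9 genes, the log2 fold change of RasHIGH over RasLOW ran from 1.04 (Bcl2l14) to 3.72 (Scg2), and 7 of them had no overlap between the groups, where 8.05% of all genes tested were higher with no overlap. The rule selected on this difference, so nothing is read from the share. Without RasLOW replicate 1 the log2 fold change rose to 5.68 for Scg2 and to 5.04 for Hsd11b1.

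The mean of the Ras populations against BMEL WT is a contrast other than the one the rule used, but the RasHIGH libraries on which the genes were chosen as high make up part of it. Scg2, Megf10, Hsd11b1 and Pde1b reached the filter on low counts only through RasHIGH, and the other 5 genes also without it, so the count over the 9 genes is a description and no support. By the test, 5 genes rose (7.37% of the 12537 genes tested did, by edgeR's quasi-likelihood test with Benjamini-Hochberg adjustment at 0.05), none fell (9.69%), and 4 did not pass. At an unadjusted p under 0.05, 1 gene was lower, Ivl, and DESeq2 made the same 5 calls. Tmem132c rose by a log2 fold change of 5.51 ± 0.38 (adjusted p = 5.84e-05), Megf10 by 4.34 ± 0.93 (adjusted p = 0.0121) and Kif21b by 3.99 ± 0.66 (adjusted p = 0.00341). Scg2 passed with an adjusted p of 0.0383 and, taken over the mean of both populations, was at least 19.1-fold higher (9.49-fold without RasHIGH replicate 1), and Pde1b passed with a log2 fold change of 2.27 ± 0.65 (adjusted p = 0.0411). Hsd11b1 (1.83 ± 0.84, adjusted p = 0.174), Pde2a (0.63 ± 0.52, adjusted p = 0.475), Bcl2l14 (-0.49 ± 0.31, adjusted p = 0.327) and Ivl (-1.07 ± 0.44, adjusted p = 0.133) did not pass.

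Sequencing lane went partly with this comparison, since BMEL WT replicates 1 and 2 ran on lane 3 and the other 7 culture libraries on lane 4. On lane 4 alone, with 1 BMEL WT library that is assumed to vary like the Ras libraries, 1 of the 9 genes passed, Tmem132c. Leaving out BMEL WT replicate 2 left 2 genes that passed, Tmem132c and Kif21b. Pde1b kept its call in 1 of 9 such omissions, that of RasLOW replicate 2. Scg2 lost its call without any 1 of the 3 BMEL WT libraries, without RasLOW replicate 1 and without RasHIGH replicate 2, and Ivl passed, as lower, without RasHIGH replicate 1.

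Relatives of the 9 genes, from lists of their families and pathways, moved in both directions between the Ras populations and BMEL WT. Of 11 other phosphodiesterase genes tested, 3 rose and 2 fell, led by Pde4b, which degrades cyclic AMP (log2 -4.51 ± 0.84), and Pde9a, which degrades cyclic GMP (3.32 ± 0.47). Of 5 other granule genes, Ptprn, a granule membrane protein, rose (2.13 ± 0.42) and Vgf, a granin-like precursor, fell (-1.77 ± 0.50). Of 7 other cornified envelope genes none rose by edgeR (1 at an unadjusted p under 0.05) and 3 fell, Evpl (-4.20 ± 0.41), Tchh (-3.65 ± 0.59) and Sprr1a (-1.95 ± 0.50). Among 8 other glucocorticoid genes 2 rose and 2 fell, with the response gene Tsc22d3 at 1.60 ± 0.33. Between RasHIGH and RasLOW none of the 54 relatives tested passed by edgeR, where 9 of 11962 genes did (0.0752%), and 11 had an unadjusted p under 0.05. DESeq2 called 419 genes and 6 of the relatives, Ptprn, Npr2, Adcy7, Pde8b, Pde9a and Pde6a.

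**Figure D2:**
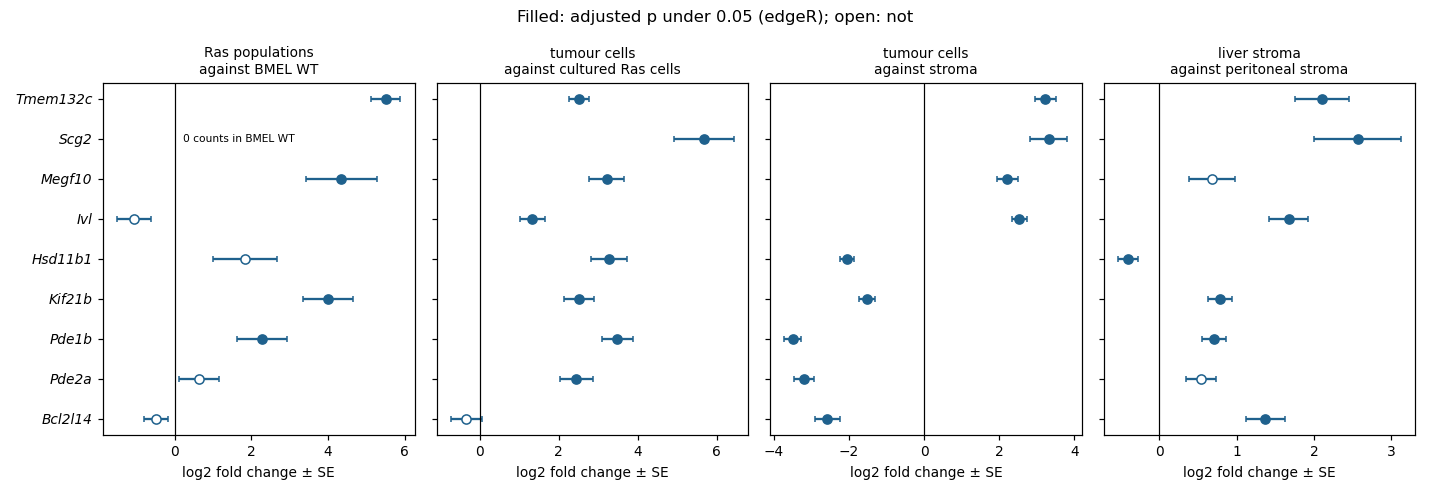
Log2 fold change with its standard error (edgeR) for the 9 genes in the 4 comparisons tested. The Ras populations and the tumour cells were used by the rule, so only the comparison of liver with peritoneal stroma shares no library with it. Filled points passed at an adjusted p of 0.05 and open points did not. All 9 genes passed between tumour cells and stroma, 4 higher and 5 lower in tumour cells.

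In tumour cells, Scg2 reached the highest level of the 9 genes per kilobase of exon, with a mean of 42.6 CPM per kilobase in liver tumours, ahead of Ivl with 16.6, Tmem132c with 9.86 and Kif21b with 6.03, while Bcl2l14 was lowest with 0.300. Scg2 was at 123, 71.9, 69.6 and 159 CPM in the liver tumour cells of mice 1 to 4 and at 8.89, 43.7, 58.9 and 6.14 CPM in their peritoneal tumour cells. Tmem132c was at 69.2, 75.5, 30.6 and 55.4 CPM in the liver and 10.1, 12.9, 25.7 and 22.5 CPM in the peritoneum. Neither gene overlapped between the sites, but in mouse 3 the ratio of liver to peritoneum was 1.18 for Scg2 and 1.19 for Tmem132c, against 26.0 for Scg2 in mouse 4 and 6.85 for Tmem132c in mouse 1.

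Ivl was at 27.7, 24.0, 44.9 and 28.6 CPM in liver tumour cells and 14, 16.6, 7.57 and 14.1 CPM in peritoneal ones. Kif21b was at 65.4, 65.7, 59.7 and 70.1 CPM in the liver and 26.3, 32.0, 8.90 and 41.0 CPM in the peritoneum. In contrast to Scg2 and Tmem132c, both had their largest ratio between the sites in mouse 3, 5.94 for Ivl and 6.71 for Kif21b. Megf10 was at 9.88, 12.7, 17.9 and 19.7 CPM against 3.48, 10.2, 9.44 and 3.23 CPM, with an overlap between the sites.

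Hsd11b1 was at 4.01, 4.16, 6.08 and 3.82 CPM in liver tumour cells and 1.27, 1.84, 2.13 and 0.698 CPM in peritoneal ones, without overlap. Pde1b was at 4.48, 9.17, 10.3 and 8.69 CPM against 3.85, 4.94, 3.91 and 1.40 CPM, and Pde2a at 8.39, 12.1, 21.0 and 15.4 CPM against 11.5, 7.37, 4.97 and 2.72 CPM. Both overlapped, and Pde2a was higher in the peritoneum in mouse 1. Bcl2l14 rested on 23 to 99 reads per library in liver and 4 to 53 in peritoneal tumour cells. It was at 2.23, 1.17, 0.689 and 0.827 CPM against 0.124, 0.486, 1.01 and 0.368 CPM, and mouse 3 had the higher value in the peritoneum.

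Over the 9 genes the log2 fold change of liver over peritoneal tumour cells ran from 1.09 (Pde2a) to 1.84 (Scg2), and 5 did not overlap between the sites, where 6.07% of all genes tested were higher with no overlap. The rule used this contrast as well. In 7 of the 9 genes the liver was higher in all 4 mice, and in Pde2a and Bcl2l14 in 3. Among the relatives, Scel (-0.85 ± 0.12, adjusted p = 0.0092 by edgeR) and Ppl (-0.58 ± 0.12, adjusted p = 0.033 by edgeR), both of the cornified envelope, were lower in the liver, opposite to Ivl, and no other relative on the lists passed.

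Against the cultured Ras cells, tumour cells had higher levels of 8 of the 9 genes (31.9% of the 13532 genes tested rose). This contrast is not one of the 2 that the rule used, but all its libraries were used by the rule. The count and the median over the 9 genes are therefore descriptions and no support. The largest difference was that of Scg2, with a log2 fold change of 5.68 ± 0.76 (adjusted p = 2.54e-05, edgeR), followed by Pde1b with 3.49 ± 0.38 (adjusted p = 4.54e-06, edgeR). Hsd11b1 rose by 3.26 ± 0.46, Megf10 by 3.21 ± 0.44, Tmem132c and Kif21b by 2.51 each (SE 0.26 and 0.38), Pde2a by 2.44 ± 0.41 and Ivl by 1.33 ± 0.32. Bcl2l14 did not pass (-0.35 ± 0.39, adjusted p = 0.451, edgeR), and the median of the 9 was 2.51, against 0.01 over all genes. Only Pde1b had tumour libraries that all lay above all 6 Ras libraries (15.4% of genes did). Peritoneal tumour cells overlapped RasHIGH in the other genes except Bcl2l14, where they lay below it (at most 1.01 against at least 1.12 CPM). Lane, sorting and dissociation went with this comparison and cannot be told apart from growth in the animal, and host RNA is described next.

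Of the relatives, 4 of 5 granule genes rose in tumour cells over cultured Ras cells, among them Cpe, a granule carboxypeptidase, from 186 to 1311 CPM (log2 2.83 ± 0.17), and Ptprn (2.78 ± 0.26). Among 8 glucocorticoid genes 5 rose and 2 fell, and the response genes Tsc22d3 (2.85 ± 0.23), Per1 (2.32 ± 0.23) and Sgk1 (1.51 ± 0.16) rose most. Of 12 phosphodiesterase genes 8 rose and 2 fell. Cyclases and their effectors moved both ways, with 6 of 16 higher and 3 lower, led by Adcy3 (5.65 ± 0.44) and Adcy7 (2.95 ± 0.23). Of all genes tested, 31.9% rose. Adcy3, Adcy7, Per1 and Sgk1 were higher in stroma than in tumour cells (22.0, 241, 352 and 373 against 3.42, 36.8, 92.0 and 113 CPM). Tsc22d3, Cpe and Ptprn had lower means in stroma (100, 142 and 101 against 125, 1311 and 594 CPM). The part of host RNA in the rises of the relatives was not tested. Of 9 cornified envelope genes 4 rose and 3 fell.

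The stroma separated the 9 genes into 2 sets. In liver stroma Tmem132c was at 8.55, 9.64, 3.35 and 8.98 CPM and in peritoneal stroma at 1.30, 1.33, 2.35 and 1.90 CPM, and Scg2 was at 18.7, 8.68, 8.71 and 23.0 CPM against 1.03, 0.714, 4.52 and 3.29 CPM. Megf10 had 1.77, 2.60, 3.04 and 4.41 CPM against 1.68, 1.38, 1.75 and 2.30 CPM, and Ivl 5.44, 6.08, 8.16 and 7.26 CPM against 2.02, 2.43, 1.19 and 2.58 CPM. In every one of the 8 tumours these 4 genes were lower in stroma than in the tumour cells beside it.

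The other 5 genes were higher in stroma in every tumour. Kif21b was at 167, 171, 167 and 175 CPM in liver stroma and 83.9, 98.1, 74.3 and 128 CPM in peritoneal stroma, and Pde1b at 94.1, 76.0, 79.7 and 87.4 CPM against 36.1, 46.5, 59.2 and 59.6 CPM. Pde2a was at 111, 134, 93.9 and 124 CPM against 109, 70.8, 56.0 and 75.2 CPM, Hsd11b1 at 8.80, 9.60, 10.4 and 12.1 CPM against 14.6, 13, 11.7 and 13.5 CPM, and Bcl2l14 at 9.87, 6.93, 8.67 and 8.18 CPM against 4.09, 1.67, 3.33 and 3.53 CPM. In bulk samples fewer cells of a type and less RNA per cell cannot be told apart.

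By edgeR, 4 genes were higher in tumour cells than in stroma (42.9% of the 15331 genes tested were) and 5 were lower (40.9%). The first set was Scg2 (log2 3.31 ± 0.50, adjusted p = 1.45e-05), Tmem132c (3.23 ± 0.28, adjusted p = 2.29e-08), Ivl (2.53 ± 0.20, adjusted p = 6.07e-09) and Megf10 (2.21 ± 0.28, adjusted p = 2.07e-06). The second set was Pde1b (-3.50 ± 0.22, adjusted p = 4.16e-10), Pde2a (-3.20 ± 0.26, adjusted p = 9.59e-09), Bcl2l14 (-2.58 ± 0.33, adjusted p = 2.19e-06), Hsd11b1 (-2.06 ± 0.18, adjusted p = 2.24e-08) and Kif21b (-1.52 ± 0.22, adjusted p = 7.20e-06). All 9 calls stood in each of the 16 fits that left out 1 library. The tumour cell libraries in this comparison were used by the rule, for the difference between the sites, so the counts over the 9 genes are descriptions and no support.

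For a check of host RNA in the sorted tumour cells, the level in tumour cells was taken as a percentage of that in the stroma of the same tumour. Ptprc was at 0.178 to 0.256% in the 4 liver tumours and at 0.175 to 1.99% in the peritoneal ones. Pde1b was at 4.76 to 12.9% in the liver and 2.34 to 10.7% in the peritoneum, Pde2a at 7.59 to 22.4% and 3.62 to 10.6%, Bcl2l14 at 7.94 to 22.6% and 3.04 to 30.4%, Hsd11b1 at 31.6 to 58.3% and 5.18 to 18.3%, and Kif21b at 35.8 to 40.1% and 12 to 32.7%. In 8 of 8 tumours each of the 5 genes had a higher percentage than Ptprc, by a median of 35.4 times for Pde1b and 166 times for Kif21b. Above the summed fibroblast markers they also lay in 8 of 8 tumours.

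Other marker lists gave a narrower margin. Between tumour cells and stroma the median log2 fold change was -6.81 over 8 macrophage markers, -5.41 over 8 endothelial markers, -6.77 over 6 fibroblast markers, -5.09 over 4 Kupffer cell markers, -6.01 over 4 mesothelial markers and -4.61 over 6 lymphocyte and NK cell markers, further down than the 5 genes at -1.52 to -3.50. The hepatocyte list was less far down than the 5 genes, with a median of -0.29 over 8 markers, of which 0 passed as higher and 1 as lower. The summed hepatocyte list stood at 9.21 to 41.4% of stroma in the liver and at 157 to 851% in the peritoneum. In the peritoneum the 5 genes, all lower in tumour cells than in stroma, could not exceed it. It was exceeded in 0 of 8 tumours by Pde1b and Pde2a, in 1 by Bcl2l14, in 3 by Kif21b and in 4 by Hsd11b1. This list also holds genes of the cultured cells, with Apoa1 at 27.8 CPM in BMEL WT and 3.14 CPM in RasLOW. The mesothelial list, led by Msln, which the cultured cells also had, stood at 170 to 440%. For the same reason it was exceeded in 0 of 8 by each of the 5 genes. On the summed level the macrophage list stood at 4.66 to 7.38% of stroma and the endothelial list at 9.01 to 56.9%, but both hold a gene that the Ras cells had in culture, Mrc1 at 276 CPM and Cdh5 at 8.49 CPM in RasHIGH. Pde1b exceeded the macrophage percentage in 6 of 8 tumours and the endothelial one in 1, and Pde2a in 7 and 2. Bcl2l14 did so in 7 and 3, and Hsd11b1 and Kif21b each in 8 and 5. The summed lymphocyte and NK cell list stood at 3.58 to 17.1% of stroma. Pde1b exceeded it in 5 of 8 tumours, Pde2a in 6, Hsd11b1 and Bcl2l14 each in 7 and Kif21b in 8. In cultured cells, where Ptprc was at 0 to 0.179 CPM and all 4 Kupffer cell markers were at 0, Kif21b was at 9.51 to 31.5 CPM in RasHIGH, and Pde1b at 0.684 to 1.09 CPM. The part of host RNA in the tumour cell values was not tested.

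Host markers moved with the site as well. The summed hepatocyte markers were at 13.1 to 58.5 CPM in liver tumour cells and 3.85 to 13 CPM in peritoneal ones, and at 54.9 to 324 CPM in liver stroma and 1.51 to 3.17 CPM in peritoneal stroma. Kupffer cell markers were at 2.30 to 7.72 CPM in liver tumour cells and 0.0572 to 1.83 CPM in peritoneal ones, and fibroblast markers went the other way, at 37.6 to 58.1 CPM and 210 to 1444 CPM. Hsd11b1, a gene of hepatocytes, was lower in liver stroma, where hepatocyte markers were high, than in peritoneal stroma. Summed fibroblast markers had means of 6353 CPM in liver and 67841 CPM in peritoneal stroma. Which cells the stromal reads of Hsd11b1 came from was not tested. Of the hepatocyte list, Alb, Fga and Fgb had means of 15.3, 4.38 and 4.61 CPM in liver and 0.224, 0 and 0.0915 CPM in peritoneal tumour cells. Apoa1 went the other way (4.52 against 4.93 CPM), and Ttr (1.07 against 0.852 CPM) and Cyp2e1 (0.573 against 0.482 CPM) were close. Of the 7 hepatocyte markers tested between these groups, 3 passed as higher in the liver and 0 as lower.

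**Figure D3:**
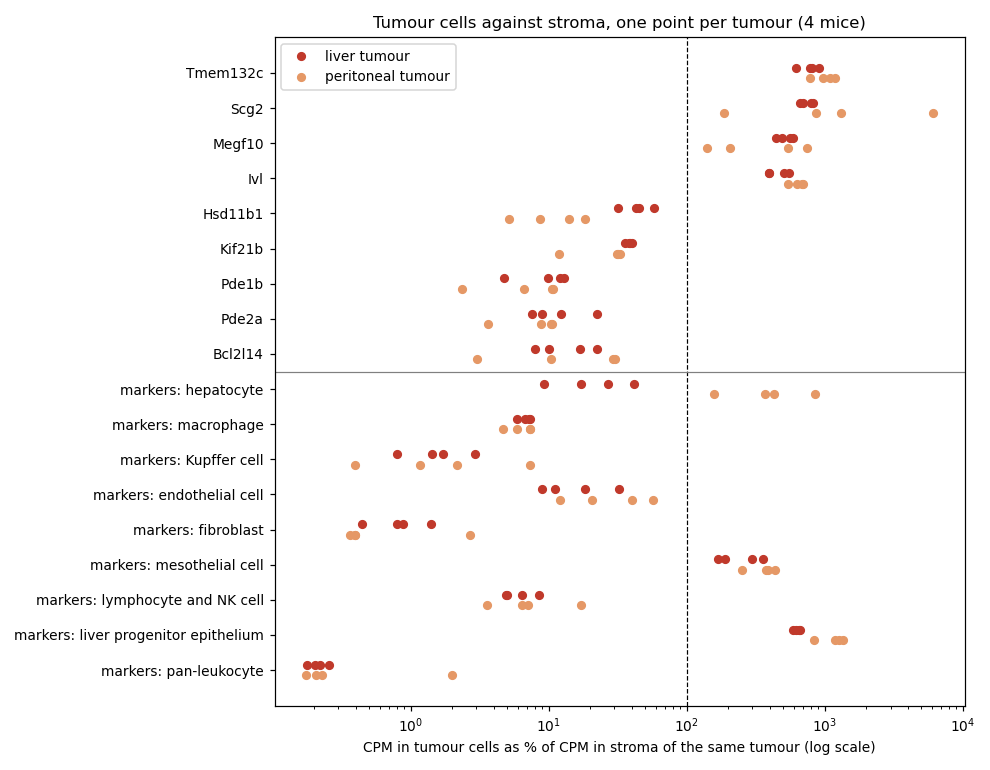
CPM in tumour cells as a percentage of the CPM in the stroma of the same tumour (log axis), 1 point per tumour, for the 9 genes and for the summed level of each marker list; the dashed line is 100%. Tmem132c, Scg2, Megf10 and Ivl lie above 100% in every tumour, and the other 5 genes lie below it and above the pan-leukocyte marker Ptprc.

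The stroma of the liver and the peritoneum was not used by the rule, although it came from the same tumours. In mouse 2 the liver libraries ran on lane 1 and the peritoneal ones on lane 2, in tumour cells and stroma alike. In the other mice both sites shared a lane. Between the stromal groups 6 genes were higher in the liver (14.9% of the 14755 genes tested were) and 1 was lower (18.5%). Scg2 (log2 2.56 ± 0.56, adjusted p = 0.00649), Tmem132c (2.10 ± 0.35, adjusted p = 0.00149) and Ivl (1.67 ± 0.26, adjusted p = 0.000881) differed most, by edgeR. They were followed by Bcl2l14 (1.37 ± 0.25, adjusted p = 0.0025), Kif21b (0.78 ± 0.15, adjusted p = 0.00331) and Pde1b (0.70 ± 0.15, adjusted p = 0.00671). Hsd11b1 was lower in the liver (-0.41 ± 0.13, adjusted p = 0.034, edgeR), in all 4 mice, and kept its call only without liver stroma replicate 4 or peritoneal stroma replicate 3 among the 8 fits that left out 1 library. Megf10 (0.68 ± 0.30, adjusted p = 0.112) and Pde2a (0.54 ± 0.19, adjusted p = 0.0544) did not pass, and with the mouse as a block Pde2a did (adjusted p = 0.0251), so that 8 of the 9 genes passed in place of 7. Pde2a also passed without liver stroma replicate 3 or peritoneal stroma replicate 1, and Megf10 without liver stroma replicate 1. By the thresholds of the study for sorted cells (unadjusted p under 0.05 and log2 fold change over 1), 4 genes were higher (3.86%), Scg2, Tmem132c, Ivl and Bcl2l14.

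Epithelial markers in the stromal libraries moved with this result. The summed epithelial markers of the stroma were 15.1 to 16.9% of those of the tumour cells beside it in the liver and 7.35 to 12% in the peritoneum. Tmem132c was at 10.9 to 16.2% and 8.47 to 12.9%, Scg2 at 12.1 to 15.2% and 1.63 to 53.6%, Ivl at 18.1 to 25.4% and 14.4 to 18.3%, and Megf10 at 16.9 to 22.4% and 13.5 to 71.1%. Between the sites, 4 of 6 epithelial markers were higher in liver stroma (median log2 fold change 0.56). Epcam, which the tumour cells lacked, was at a mean of 5.69 CPM in liver stroma and 4.45 CPM in peritoneal stroma, against 0.0669 and 0.0488 CPM in tumour cells of the same sites. In mice 1 to 4 the ratio of liver to peritoneum was 6.85, 5.85, 1.19 and 2.46 in tumour cells and 6.59, 7.23, 1.43 and 4.72 in stroma for Tmem132c, and 1.98, 1.45, 5.94 and 2.03 against 2.69, 2.50, 6.85 and 2.81 for Ivl. For both genes the mouse with the most extreme ratio in the stroma was mouse 3, the lowest for Tmem132c and the highest for Ivl, as in tumour cells. The compartments were further apart for Scg2 (13.8, 1.65, 1.18 and 26.0 in tumour cells, 18.1, 12.1, 1.93 and 6.98 in stroma) and for Megf10 (2.84, 1.24, 1.90 and 6.08 against 1.05, 1.88, 1.74 and 1.92). How much of the stromal reads of these 4 genes came from tumour cells or from host epithelium was not tested, and their stromal difference is no separate support for the difference between tumour cells.

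Of the 5 genes that were higher in stroma than in tumour cells, Bcl2l14, Kif21b and Pde1b were thus higher in liver stroma. So were 6 hepatocyte, 4 Kupffer cell and 4 of 6 lymphocyte and NK cell markers and Ptprc (log2 0.77). Cd3e of the lymphocyte list (-2.81 ± 0.34) and all 6 fibroblast markers were lower there. Of 15 other phosphodiesterase genes tested in stroma 2 rose and 5 fell, among them Pde1a (-1.65 ± 0.38), opposite to Pde1b. Tmem132e, a relative of Tmem132c, was also higher in liver stroma (2.06 ± 0.30), and Tmem132d was lower (-2.10 ± 0.47).

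**Figure D4:**
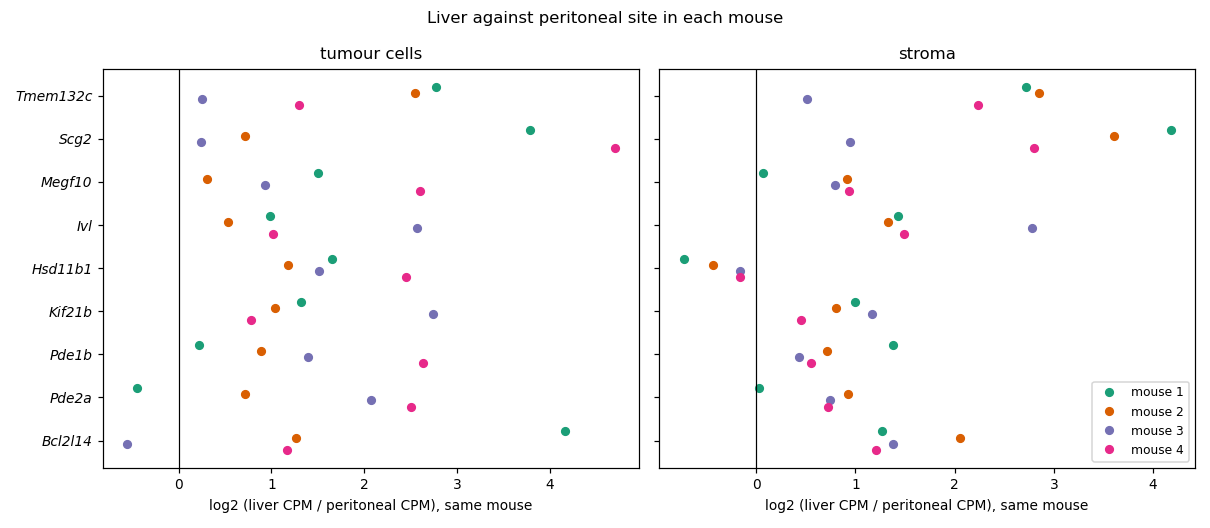
Log2 ratio of liver to peritoneal CPM in the same mouse for tumour cells (left) and stroma (right), 1 colour per mouse. The liver was higher in all 4 mice for 7 genes in tumour cells and 8 in stroma, and Hsd11b1 was lower in the stroma of all 4 mice.

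Each gene was set beside 14460 others by the correlation of log2 (CPM + 0.5) over the 25 libraries, which share their groups and so mainly reflect group means. Pde1b was most like Nckap1l (Pearson's r = 0.988), Pde2a like Prkcb (0.98), Kif21b like Cd53 (0.971) and Hsd11b1 like Snx29 (0.967), and Cd53 and Nckap1l are leukocyte genes. Nckap1l is also the neighbour of Pde1b, 4.2 kb away, with a mean of 1.93 CPM in RasHIGH, 0.415 in RasLOW, 17.9 in liver and 11.8 in peritoneal tumour cells and 628 in liver stroma. Tmem132c was most like Sh3kbp1 (0.943), Scg2 like Tmprss11e (0.945), Megf10 like Npc1 (0.956), Ivl like Tmprss11f (0.901) and Bcl2l14 like Fem1c (0.921). Among the 9 genes themselves, Pde1b and Pde2a had r = 0.982, Hsd11b1 and Pde1b 0.971, and Scg2 and Megf10 0.95, and over the 8 tumour cell libraries Scg2 and Megf10 had 0.921.

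The nearest measured genes on the chromosome gave values for part of the pattern. Of the neighbours with at least 0.2 CPM in the lower group, Slc15a4 beside Tmem132c had a ratio of RasHIGH to RasLOW of 0.974, Prrc1 beside Megf10 of 1.12, Lrp6 beside Bcl2l14 of 1.20 and Arap1 beside Pde2a of 1.32, while Ap1s3, 167 kb from Scg2, had 1.77 and Nckap1l 4.65. On the other side, C330018D20Rik beside Megf10 had 0.887, Etv6 beside Bcl2l14 had 1.16, and Gpr25 beside Kif21b had no reads in RasHIGH. Between liver and peritoneal tumour cells Slc15a4, Prrc1, Lrp6, Arap1, Ap1s3 and Nckap1l had ratios of 1.13, 1.20, 1.03, 0.957, 1.22 and 1.52. C330018D20Rik had 1.05, Etv6 0.876 and Gpr25 1.16. Furthest from 1 was G0s2, 8.1 kb from Hsd11b1, with 2.54 (6.65 against 2.62 CPM). Next came Tmem132b, 1454 kb from Tmem132c, with 2.21 (0.485 against 0.219 CPM), and Kcne4, 615 kb from Scg2, with 0.494 (0.226 against 0.458 CPM). The cornified envelope neighbour of Ivl, Sprr4, and Smcp on its other side had no reads in any library.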

How the data were processed

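Messenger RNA was sequenced from 25 mouse libraries in 7 groups. The authors made NuGEN libraries and used TopHat2 against mm9; the deposited table holds whole-number read counts for each gene, without normalization; the submitters' processing notes also name FastQC, Bowtie 0.12.2, mm8 and mm10, and the counting program, its strand setting and the annotation are not given in the sources used here. The 9 genes and all gene lists were chosen with earlier results of these data known.

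Tests used edgeR 4.0.16 in R 4.3.3 (filterByExpr with a minimum count of 10, TMM, quasi-likelihood F-test, Benjamini-Hochberg adjustment over all genes tested, threshold 0.05), on the libraries of the groups compared. CPM used TMM factors over all 25 libraries. Errors beside fold changes are standard errors. Fits were tested on simulated data. Relatives were named by the largest absolute log2 fold change among called genes, up to 3 a list and comparison. Alternatives were DESeq2 1.42.0, RLE, no filter, the thresholds of the paper (a log2 fold change of 1.5 and p of 0.01 in cell lines, 1 and 0.05 in sorted cells), all libraries in 1 fit, lane 4 alone, a replicate block and leaving out each library. Mouse numbers mark the same animal and pair the samples; correlations of deviations between groups of the same numbers ran from -0.172 to 0.307. Numbers of the cultures name libraries only. Positions came from GENCODE vM1 on mm9, promoters from RefSeq on GRCm38.p6. Correlations between replicates were 0.976 to 0.996 and no libraries were identical.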

Additional observations from a re-analysis of the deposited data

Results flagged for a closer look

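Of 36 groups of 4 libraries (9 genes in 4 sorted groups), 1 held a library that stood apart by Dixon's ratio, where chance gives about 1 in 20. It was Hsd11b1 in the liver tumour cells of mouse 3, at 6.08 CPM, with a ratio of 0.852. That library was also the highest of its group for Ivl, Pde1b and Pde2a.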

How the results depend on the processing

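With the thresholds of the paper, 912 genes passed between the Ras populations and BMEL WT in place of 2139, 2107 in place of 4926 between liver and peritoneal stroma, with 4 of the 9 genes in place of 7, 6889 in place of 12850 between tumour cells and stroma, and 3688 in place of 8582 between tumour cells and cultured Ras cells. With all 25 libraries in 1 fit, 4020 genes passed between the Ras populations and BMEL WT, with Ivl and Hsd11b1 added, and 4 of the 9 genes passed between the stromal groups, without Hsd11b1, Kif21b and Pde1b. On lane 4 alone 263 genes passed, with 1 of the 9; fewer libraries entered that fit. Without a filter on low counts Pde1b lost its call against BMEL WT (adjusted p = 0.0517, edgeR), and DESeq2 added Pde2a between the stromal groups (adjusted p = 0.0217). DESeq2, added for RasHIGH against RasLOW after seeing the data, called 419 genes in place of 9. The bounds for Scg2 without each Ras library, and the filter without RasHIGH, were also added after seeing the data. No direction of a result reversed.

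Leaving out 1 library gave 1126 to 2699 genes and 2 to 5 of the 9 between the Ras populations and BMEL WT, 3976 to 4872 and 6 to 7 between the stromal groups, 12734 to 12952 between tumour cells and stroma, 8106 to 9264 between tumour cells and cultured Ras cells, 0 to 16 between RasHIGH and RasLOW and 41 to 884 between liver and peritoneal tumour cells. With the replicate number as a block, 102 genes in place of 419 passed between the tumour cell groups, which the mouse pairs, and 0 in place of 9 between RasHIGH and RasLOW, whose numbers name libraries only (789 genes had an unadjusted p under 0.05 by edgeR under the block); the other paired fits changed the calls of Pde2a in stroma and Pde1b against BMEL WT (adjusted p = 0.0992, edgeR) and no other call of the 9 genes. Depth limits Hsd11b1, Pde1b, Scg2 and Megf10 in BMEL WT and RasLOW, where libraries held 0 to 21 reads.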
